A study of Mus musculus with 24 samples.

Results

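The comparison described here is the end-to-end change of mouse calvarial osteoblast cultures labelled wild type, from day 2 to day 28. Its members are the 3 arrays titled as wild-type day 28 and the 3 titled as wild-type day 2, which are 6 of the 24 arrays of the series. The series holds 8 groups of 3 arrays, for wild type and for a knockout of β-arrestin 2 (Arrb2), an adaptor protein of activated G protein-coupled receptors, at days 2, 5, 10 and 28. Cells were freed by collagenase and trypsin from the skull bones of C57BL/6 mice 7 to 10 days old and were used at passage 2. Growth medium was replaced on day 3 by a differentiation medium of 5 mM β-glycerophosphate, 50 mg/L ascorbic acid and 10% serum. Cells of day 2 had therefore never seen that medium, while cells of day 28 had grown in it since day 3. The labels call each array a separate biological replicate from independently prepared cells, and they state neither the number of mice pooled nor any sorting. Each array, of the type Mouse Gene 2.0 ST from Affymetrix, read 100 ng of total RNA, and values are log2 RMA signals, on which a difference of 1 is 2-fold. Of 22180 genes with a probe set cluster that carries exactly 1 gene symbol, 14892 reached the array median on at least 3 of the 24 arrays and were tested.

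Osteoblasts are the cells that lay down bone. Cultured from the skull of young mice, they first divide, then secrete a collagen matrix, and under ascorbic acid and a phosphate donor they mineralise it in nodules while some turn towards osteocytes, the cells embedded in bone. The digest of calvaria also releases fibroblast-like cells of the periosteum and sutures, cells able to become adipocytes, and macrophages that live on bone surfaces, and a bulk array reads the RNA of all of them together. A change in level here therefore cannot tell more or fewer cells of a type from more or less RNA per cell.

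Array medians lay between 4.55 and 4.72 over the 24 arrays. Correlations over the tested genes were 0.978 to 0.988 among the day 2 arrays, 0.971 to 0.987 among the day 28 arrays, and 0.847 to 0.888 between the days. The signal of the targeted gene was not lower on the arrays labelled knockout, and whether its probes lie within the deleted part was not tested. Arrb2 ranged from 5.00 to 6.81 on the 12 arrays labelled wild type and from 6.44 to 7.42 on the 12 labelled knockout, so the groups are called here by their labels only. On the labelled wild-type arrays Arrb2 read 5.73, 5.93 and 5.98 on day 2 and 6.16, 6.36 and 6.81 on day 28, a change of 0.56 (SE 0.18, adjusted p = 0.0165) that missed the threshold without day 2 replicate 1 or without day 28 replicate 3, where the adjusted p reached 0.122. Its relative Arrb1 changed by 0.80 (SE 0.23, adjusted p = 0.00894). Sex-linked genes followed the replicate number on both days. Xist, the RNA that silences one X chromosome in female cells, stood at 8.46, 3.56 and 8.11 on day 2 and at 8.30, 4.26 and 9.74 on day 28. Among Y-linked genes, chosen after their values were seen, Kdm5d stood at 6.09, 6.93 and 2.98 on day 2 and at 6.47, 6.92 and 2.67 on day 28, so replicate 1 was high for both kinds of gene, and what this moves among the other results was not tested.

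In all lists of 3 values the order is replicates 1, 2 and 3, adjusted p-values come from limma with Benjamini-Hochberg adjustment over the 14892 genes, and a gene is said to have risen or fallen when that p is under 0.05. By this rule 5774 genes changed (38.8%), of which 2912 (19.6%) were higher and 2862 (19.2%) lower on day 28. Centring every array on the median of its tested genes moved the median change of these genes from -0.034 to -0.157 and turned the split to 2416 higher and 3972 lower. Large changes were mostly rises: 1432 genes (9.62%) rose and 818 (5.49%) fell by at least 2-fold, 243 (1.63%) rose and 20 (0.134%) fell by at least 8-fold, and 36 (0.242%) rose and 1 (0.00672%) fell by at least 32-fold. The 1 fall of that size was Ptgs2, the inducible cyclooxygenase. The widest rises belonged to Car3, a carbonic anhydrase of fat and muscle, at 7.84, to Egfl6, a secreted EGF-repeat protein, at 7.56, and to Fabp4, the fatty acid carrier of adipocytes, at 7.49. The 3 day 28 arrays did not overlap the 3 day 2 arrays in 7858 genes (52.8%), of which 5613 (37.7% of those tested) were called. Most called genes were thus free of overlap, and for the largest changes this was also a rule of naming. Remarks on overlap below only describe the values. Among the called genes, 360 had all day 2 arrays below the array median and 170 had all day 28 arrays below it. The table has no detection call, so the sizes of these changes are less certain.

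**Figure D1:**
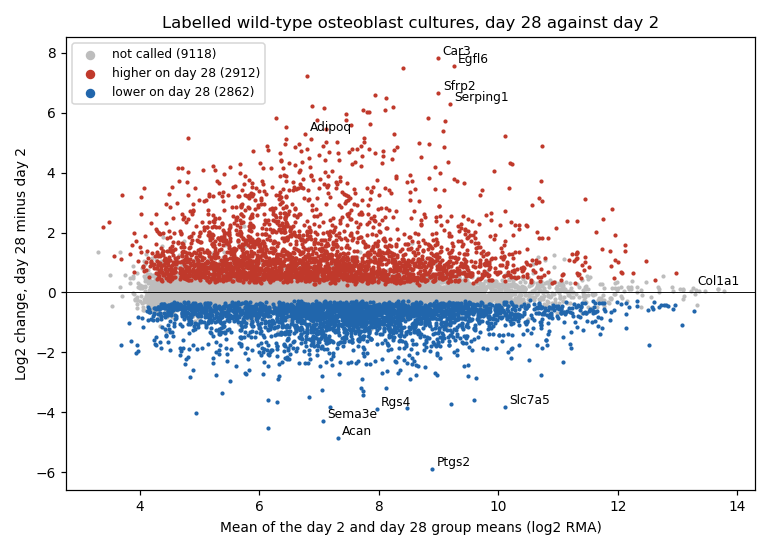
Log2 change from day 2 to day 28 (y axis) of each of the 14892 tested genes against the mean of its day 2 and day 28 group means (x axis, log2 RMA), with genes called higher in red, called lower in blue and not called in grey. Rises reach 7.84 and falls reach -5.90, and 36 rises but 1 fall pass 32-fold.

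The gene lists below are read against those shares. Their counts describe them and do not show that a list stands apart from other genes of like level.

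**Figure D2:**
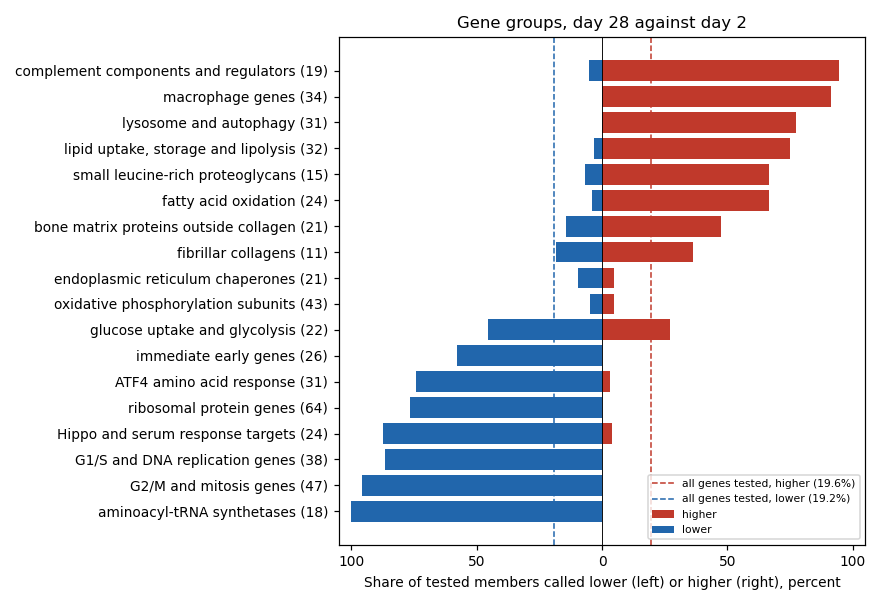
Share of the tested members of 18 gene lists (x axis, percent) that were called higher (red, right) or lower (blue, left) on day 28, with the number tested in brackets and dashed lines at the shares over all genes tested, 19.6% and 19.2%. Complement, macrophage, lysosome and lipid genes extend to the right, synthetase, mitosis and replication genes to the left, and oxidative phosphorylation subunits and chaperones lie inside both lines.

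Genes of bone matrix rose more often than they fell. Of 21 tested bone matrix proteins outside collagen 10 rose (47.6%, against 19.6% over all genes) and 3 fell (14.3%, against 19.2%). Their median change was 0.73 against -0.0336 over all genes tested. Ibsp, bone sialoprotein, stood at 4.13, 3.75 and 5.04 on day 2 and at 10.65, 5.77 and 11.85 on day 28, a change of 5.12 (SE 1.37, adjusted p = 0.00552). The groups did not overlap, but day 28 replicate 2 lay far below replicates 1 and 3. Phex, a peptidase of osteoblasts and osteocytes that restrains inhibitors of mineral, rose from 3.24, 3.37 and 3.65 to 7.35, 5.95 and 9.47, by 4.17 (SE 0.84, adjusted p = 0.000535). Omd, osteomodulin, a proteoglycan of mineralised matrix, rose from 5.47, 4.31 and 5.88 to 8.90, 7.88 and 10.52, by 3.88 (SE 0.60, adjusted p = 3.76e-05). In both genes replicate 2 was again the lowest and replicate 3 the highest on day 28. Smoc1, a secreted calcium-binding protein, rose from 6.88, 6.59 and 6.91 to 9.26, 9.44 and 9.91, by 2.74 (SE 0.35, adjusted p = 4.86e-06), and there the 3 day 28 arrays lay close together. Tnn, tenascin-W of the osteoblast lineage, fell from 10.07, 9.77 and 9.10 to 6.83, 6.03 and 8.30, by 2.59 on the log2 scale (SE 0.71, adjusted p = 0.00642).

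Several classical osteoblast genes gave small or uncertain differences. Bglap, osteocalcin, read 4.50, 4.47 and 4.25 on day 2 and 6.25, 4.76 and 6.24 on day 28, a rise of 1.35 (SE 0.37, adjusted p = 0.00669) from a level below the array median, and its near-identical neighbouring copies may share its probes. Alpl, tissue-nonspecific alkaline phosphatase, read 6.76, 6.39 and 7.98 on day 2 and 7.75, 7.60 and 9.34 on day 28, a difference of 1.19 that missed the threshold (SE 0.77, adjusted p = 0.242). Col1a1, the main collagen chain of bone, read 13.04, 13.29 and 13.20 on day 2 and 13.18, 13.16 and 13.68 on day 28 (0.16, SE 0.20, adjusted p = 0.559). In Alpl and Col1a1 the groups overlapped, and Alpl passed the threshold with a fixed replicate block (adjusted p = 0.047) but in no other setting. The osteocyte genes Dmp1 and Sost differed by 1.84 (SE 0.74, adjusted p = 0.0531) and 0.06 (SE 0.44, adjusted p = 0.932), and Dmp1 passed with the 12 wild-type arrays alone, with a fixed or random replicate block, and without day 28 replicate 2 (adjusted p = 0.00666), while it reached 0.341 without day 28 replicate 3. The receptor Pth1r of parathyroid hormone differed by 0.40 (SE 0.37, adjusted p = 0.427). Of 16 osteocyte genes tested 2 rose and 3 fell, a share of 31.2% called against the background of 38.8%, and 4 rose without day 28 replicate 2.

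Among 19 bone transcription factors 6 rose and 9 fell, and 3 rose without day 2 replicate 2 or with centred arrays. Msx2, a homeobox factor of calvarial growth, stood at 9.32, 9.06 and 9.14 on day 2 and at 6.45, 5.94 and 6.41 on day 28, a fall of 2.91 on the log2 scale (SE 0.41, adjusted p = 1.35e-05). Lef1, a DNA-binding partner of β-catenin, changed by -1.68 (SE 0.31, adjusted p = 0.000239), and Mef2c, a factor of hypertrophic cartilage and osteocytes, by 1.91 (SE 0.28, adjusted p = 2.4e-05). Sp7, osterix, which osteoblasts need in order to form, stood at 8.56, 8.18 and 8.63 on day 2 and at 6.79, 5.89 and 8.03 on day 28, a change of -1.55 (SE 0.59, adjusted p = 0.0428). Among the fits without 1 array that call held only without day 28 replicate 3, and the adjusted p reached 0.209 without day 28 replicate 2.

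Of 12 genes of mineralisation, phosphate and pyrophosphate 4 rose and 2 fell, and 2 rose without day 2 replicate 2, day 2 replicate 3 or day 28 replicate 1. Of 17 osteoclast-regulating factors 4 rose and 6 fell, the latter 3 without day 2 replicate 2. Slc20a1, a phosphate importer, stood at 10.87, 11.21 and 11.15 on day 2 and at 7.41, 7.10 and 7.52 on day 28, a fall of 3.73 on the log2 scale (SE 0.31, adjusted p = 3.21e-08). Tnfrsf11b, osteoprotegerin, the decoy that blocks osteoclast formation, fell from 10.59, 9.95 and 10.55 to 7.86, 6.83 and 8.11, a change of -2.76 (SE 0.42, adjusted p = 2.97e-05). Il34, the second ligand of the receptor Csf1r, rose from 6.42, 5.75 and 6.36 to 8.62, 8.84 and 9.01, by 2.65 (SE 0.20, adjusted p = 1.32e-08). None of these genes had overlapping groups, as was the case for 5613 of the 5774 called genes. Cxcl12, the chemokine that holds blood-forming cells in marrow, rose by 3.73 (SE 0.31, adjusted p = 3.43e-08), from 8.75, 8.62 and 9.18 to 12.27, 13.02 and 12.44.

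**Figure D3:**
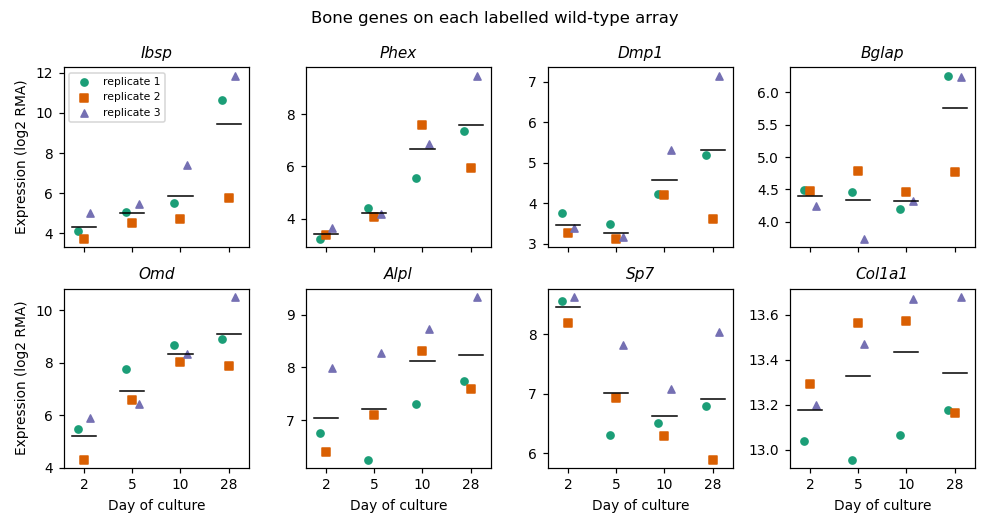
Log2 RMA level (y axis) of 8 bone genes on each of the 12 arrays labelled wild type, by day of culture (x axis, not to scale), with a marker for each replicate and a line at each group's mean. On day 28 replicate 2 lies lowest and replicate 3 highest for Ibsp, Phex, Dmp1, Omd, Alpl and Sp7, and the Col1a1 axis spans less than 1 log2 unit.

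The day 28 arrays differed among themselves in a recurring order. The median SD over genes was 0.161 on day 28 and 0.176 on day 2. Of the 14892 genes tested, 76 had an SD above 1 on day 28 and 39 on day 2. Replicate 3 was farthest from the group mean in 58 of the 76 and in 31 of the 39. In 42 of the 76 day 28 genes replicate 3 was the highest and replicate 2 the lowest, and in 18 the order of those arrays was turned. The sex-linked Xist was among the 42, and Uty, Eif2s3y and Kdm5d were among the 18. Genes of bone and cartilage were among the 42, chosen here after their values were seen: Smpd3, a sphingomyelinase needed for mineral, stood at 6.38, 5.53 and 8.62, Ifitm5, an osteoblast membrane protein, at 7.01, 5.01 and 7.64, Panx3, a channel of osteoblasts and chondrocytes, at 8.15, 6.01 and 8.86, and Col10a1, collagen of hypertrophic cartilage, at 6.75, 5.45 and 8.05. Changes from day 2 did not pass the threshold in these 4 genes. Kcnma1, a potassium channel, ran the other way on day 28, at 4.10, 9.24 and 3.63. The mean of the bone matrix list was 9.54, 9.03 and 10.01 on the day 28 arrays, and that of the mitosis genes was 6.99, 7.66 and 6.09, so the array with the lowest bone matrix mean had the highest mitosis mean and the reverse. With 3 arrays this is a description of the cultures.

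Of 15 small leucine-rich proteoglycans, which coat collagen fibrils, 10 rose and 1 fell, with a median change of 2.02, and 10 rose without any 1 of the 6 arrays. Lum, lumican, which spaces collagen fibrils, stood at 8.03, 6.89 and 9.19 on day 2 and at 12.31, 12.17 and 12.57 on day 28, a rise of 4.31 (SE 0.59, adjusted p = 1.11e-05). Dcn, decorin, went from 9.79, 9.43 and 10.45 to 13.04, 12.94 and 13.03 (3.11, SE 0.52, adjusted p = 8.38e-05). The day 2 arrays were spread and the day 28 arrays tight in both. Rises were also called in Epyc (4.30, SE 0.58), first described in cartilage, in Ecm2 (3.90, SE 0.28), in Aspn, asporin (2.38, SE 0.27), and in Ogn, osteoglycin (2.02, SE 0.22), while Podnl1 fell by 1.05 on the log2 scale (SE 0.26). The adjusted p of these 5 genes was 0.00318 or lower.

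More fibrillar collagen chains rose than fell. Col3a1, the chain that mixes with type I collagen in soft tissue, stood at 9.79, 10.31 and 10.29 on day 2 and at 12.42, 12.46 and 12.65 on day 28, a rise of 2.38 (SE 0.21, adjusted p = 7.91e-08). Col2a1, the chain of cartilage, fell from 11.11, 10.25 and 11.79 to 8.05, 8.67 and 7.91, a change of -2.84 (SE 0.62, adjusted p = 0.00121). The groups were apart in both. Of 11 fibrillar chains 4 rose (36.4%, against 19.6% over all genes) and 2 fell (18.2%, against 19.2%). The falls numbered 1 without either day 2 replicate 1, day 2 replicate 2, day 28 replicate 1 or day 28 replicate 2. Of 31 other collagen chains 10 rose and 0 fell (32.3% called), led by Col14a1, which binds fibril surfaces, at 6.03 (SE 0.51, adjusted p = 4.47e-08), and by Col15a1 of basement membrane zones at 3.78 (SE 0.33, adjusted p = 6.92e-08).

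Of 19 cartilage genes 3 rose and 4 fell, a share of 36.8% called against the background of 38.8%. Acan, aggrecan, stood at 9.96, 8.91 and 10.38 on day 2 and at 4.01, 4.64 and 5.99 on day 28, a fall of 4.87 on the log2 scale (SE 0.76, adjusted p = 4.49e-05). Hapln1, the link protein that ties aggrecan to hyaluronan, changed by -2.38 (SE 0.60, adjusted p = 0.00339). Of other proteins of joints and tendons, Comp, cartilage oligomeric matrix protein, rose by 3.25 (SE 0.64, adjusted p = 0.000445) and Prg4, the lubricant of joint surfaces, by 2.52 (SE 0.45, adjusted p = 0.000164).

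Elastic fibre genes rose in 9 of 15 cases and fell in 1, with a median change of 1.01. Eln, tropoelastin, stood at 7.31, 6.97 and 6.28 on day 2 and at 10.07, 9.95 and 10.59 on day 28, a rise of 3.35 (SE 0.42, adjusted p = 4.06e-06). Mfap2, a microfibril protein, rose by 3.69 (SE 0.27, adjusted p = 8.08e-09) and Efemp1, fibulin 3, by 4.01 (SE 0.62, adjusted p = 4.35e-05). The 1 fall was Ltbp1, which tethers latent TGF-β to microfibrils, at -2.74 (SE 0.49, adjusted p = 0.000189). Of 18 matrix metalloproteinases and their inhibitors 9 rose and 2 fell, the latter 1 without day 2 replicate 2 or day 28 replicate 3. Mmp13, the collagenase of bone and cartilage, stood at 6.60, 6.16 and 9.38 on day 2 and at 10.76, 9.90 and 11.74 on day 28 (3.42, SE 0.75, adjusted p = 0.00113), with day 2 replicate 3 well above the other day 2 arrays. Timp1, an inhibitor of these enzymes, changed by -1.19 (SE 0.24, adjusted p = 0.000687). Of 19 integrins, the receptors for matrix, 7 rose and 5 fell, with a median of 0.57, and the falls numbered 2 without day 2 replicate 2 and 3 without day 28 replicate 1 or day 28 replicate 2. Itgbl1, a secreted integrin-like protein, rose by 4.20 (SE 0.40, adjusted p = 1.66e-07), whereas Itga5, a chain of the fibronectin receptor, changed by -2.42 (SE 0.33, adjusted p = 9.89e-06) and Itga3, a chain of a laminin receptor, by -2.80 (SE 0.44, adjusted p = 4.99e-05).

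Cell division genes were lower on day 28. Of 47 tested G2/M and mitosis genes 45 fell and 0 rose, with a median change of -1.56, and 38 fell without day 28 replicate 3. Of 38 G1/S and DNA replication genes 33 fell and 0 rose, with a median of -1.19. Bub1, a kinase of the spindle checkpoint, stood at 7.83, 8.71 and 8.39 on day 2 and at 6.27, 6.91 and 5.10 on day 28, a change of -2.21 (SE 0.33, adjusted p = 3.12e-05). Rrm2, the ribonucleotide reductase subunit made in S phase, stood at 9.47, 9.92 and 9.83 and then at 7.62, 8.21 and 6.50, a change of -2.30 (SE 0.31, adjusted p = 8.9e-06). Day 28 replicate 2 kept the highest and replicate 3 the lowest value in both genes. Cdkn1c, the imprinted inhibitor p57 of cyclin-dependent kinases, rose from 4.95, 4.84 and 6.04 to 8.76, 8.30 and 8.13, by 3.12 (SE 0.36, adjusted p = 1.36e-06). The locus Cdkn2a, which encodes p16 and p19ARF, rose by 1.41 (SE 0.28, adjusted p = 0.000501). Of 26 CDK inhibitors and p53 targets 11 rose and 11 fell, the latter 6 without day 28 replicate 3 and 7 without day 2 replicate 1, day 2 replicate 2 or day 28 replicate 1.

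Promoters of mitosis genes often carry a CHR element, TTTGAA, downstream of CCAAT boxes, through which the DREAM and MuvB complexes and NF-Y act. In the 250 bases before the RefSeq start site, read on both strands, TTTGAA was present in 11 of 38 mitosis promoters (28.9%), in 5 of 33 G1/S promoters (15.2%) and in 10.6% of the 11602 tested genes with a promoter in the table. CCAAT was present in 27 of 38 (71.1%), 20 of 33 (60.6%) and 35.7%, and both motifs together in 10 of 38 mitosis promoters (26.3%) and in 3.95% of all. A match is a description of the letters, not of binding. The promoters of 2 fallen genes are shown because they hold both motifs: Ube2c, the ubiquitin-conjugating enzyme of the anaphase-promoting complex, which stood at 8.96, 9.22 and 9.62 on day 2 and at 7.42, 8.42 and 6.40 on day 28 (-1.85, SE 0.39, adjusted p = 0.000908), and Cdc20, an activator of that complex picked for its motifs after its value was seen (-1.72). They run 5′ to 3′ on the gene's strand of GRCm38.p6, with the CHR element, the CCAAT box and the reverse complements of both in capitals, which run together where 2 matches overlap.
Ube2c, chr2:164769679-164769928, plus strand: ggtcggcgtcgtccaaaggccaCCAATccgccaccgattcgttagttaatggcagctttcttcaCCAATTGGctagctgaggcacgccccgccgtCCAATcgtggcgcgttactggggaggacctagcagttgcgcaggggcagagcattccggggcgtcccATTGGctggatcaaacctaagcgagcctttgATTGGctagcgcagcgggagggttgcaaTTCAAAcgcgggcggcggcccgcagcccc
Cdc20, chr4:118437344-118437593, minus strand: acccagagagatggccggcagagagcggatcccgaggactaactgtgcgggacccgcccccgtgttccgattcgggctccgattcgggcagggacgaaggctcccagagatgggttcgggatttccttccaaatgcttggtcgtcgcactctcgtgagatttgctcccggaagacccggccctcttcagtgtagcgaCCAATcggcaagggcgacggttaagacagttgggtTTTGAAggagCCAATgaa

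Genes that charge transfer RNAs and supply amino acids were lower on day 28. All 18 tested aminoacyl-tRNA synthetases, which load amino acids onto transfer RNA, fell, by between 0.50 and 2.19 on the log2 scale with a median of -1.09, and all 18 fell without any 1 of the 6 arrays. Iars, the isoleucine enzyme, stood at 11.33, 11.37 and 11.22 on day 2 and at 9.13, 8.89 and 9.34 on day 28 (-2.19, SE 0.22, adjusted p = 2.46e-07). Gars, the glycine enzyme, stood at 11.58, 11.71 and 11.69 and then at 9.81, 9.69 and 9.94 (-1.84, SE 0.16, adjusted p = 7.91e-08). The groups were far apart against their spread. Of 31 genes in a list of targets of ATF4, the transcription factor of the amino acid and stress response, 23 fell and 1 rose, with a median of -1.62. The 1 rise was lost with centred arrays and without any 1 array other than day 2 replicate 3.

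Cth, cystathionine gamma-lyase, which makes cysteine, stood at 9.58, 9.41 and 9.19 on day 2 and at 6.30, 6.09 and 5.89 on day 28, a fall of 3.30 on the log2 scale (SE 0.19, adjusted p = 3.26e-10). Asns, asparagine synthetase, stood at 10.82, 10.66 and 10.52 and then at 8.30, 8.08 and 8.22 (-2.46, SE 0.29, adjusted p = 1.72e-06). Amino acid transporters fell as well, among them Slc7a3 (-4.52, SE 0.33, adjusted p = 8.08e-09) and Slc7a5 (-3.83, SE 0.38, adjusted p = 2.29e-07). Slc7a3, a carrier of basic amino acids, ended below the array median on all day 28 arrays, whereas Slc7a5, a carrier of large neutral ones, did not. Atf4 itself stood at 9.57, 9.72 and 9.52 on day 2 and at 8.39, 8.21 and 8.69 on day 28 (-1.18, SE 0.26, adjusted p = 0.0012).

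ATF4 binds a composite element whose core reads TGATGCA. The core was present within 250 bases of the start, on either strand, in 5 of 27 promoters of the ATF4 list (18.5%), in 3 of the 20 whose genes fell (15.0%), in 1 of 11 synthetase promoters (9.09%) and in 203 of 11602 tested genes (1.75%). Shown here, for the core in capitals on either strand, are Slc7a11, the cystine importer, which stood at 8.12, 8.08 and 7.66 on day 2 and at 4.04, 4.16 and 4.88 on day 28 (-3.59, SE 0.40, adjusted p = 8.78e-07), and Fgf21, a hormone released under amino acid stress, which stood at 7.87, 7.12 and 6.35 and then at 4.59, 4.19 and 4.49 (-2.69, SE 0.34, adjusted p = 4.07e-06). The first holds the core on both strands and the second on its opposite strand (RefSeq, GRCm38.p6, 5′ to 3′ on the gene's strand).
Slc7a11, chr3:50443614-50443863, minus strand: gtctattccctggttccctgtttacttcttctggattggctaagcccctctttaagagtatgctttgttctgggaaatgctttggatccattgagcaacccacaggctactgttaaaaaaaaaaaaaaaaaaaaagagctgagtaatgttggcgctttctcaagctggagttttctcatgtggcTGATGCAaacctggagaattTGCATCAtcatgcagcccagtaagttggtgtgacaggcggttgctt
Fgf21, chr7:45615491-45615740, minus strand: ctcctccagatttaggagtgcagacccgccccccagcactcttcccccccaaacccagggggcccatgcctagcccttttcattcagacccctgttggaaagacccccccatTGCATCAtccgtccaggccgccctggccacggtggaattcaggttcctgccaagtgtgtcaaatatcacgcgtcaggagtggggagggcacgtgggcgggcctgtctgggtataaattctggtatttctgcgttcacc

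Ribosomal protein genes fell by smaller amounts. Of 64 tested 49 fell and 0 rose, with a median of -0.63 and a lowest change of -1.21, and 17 fell by more than a 1.2-fold minimum in limma's treat test. Rplp0, a stalk protein often used as a reference gene, stood at 10.45, 10.60 and 10.93 on day 2 and at 9.88, 9.89 and 9.39 on day 28 (-0.94, SE 0.20, adjusted p = 0.000947). Rpl32 stood at 11.74, 11.81 and 11.77 and then at 10.85, 10.97 and 10.57 (-0.98, SE 0.22, adjusted p = 0.00172). In neither gene did the groups overlap. Ribosomal protein genes have many processed copies in the genome, so their probes may read more than 1 locus. Endoplasmic reticulum chaperones differed little by comparison, with 1 of 21 higher and 2 lower, although 6 were lower with centred arrays. One of the 2 was Ero1a, which oxidises the disulphide isomerase, at -1.38 (SE 0.21, adjusted p = 3.24e-05).

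Contractile and serum-responsive genes fell. Of 24 genes linked to Hippo signalling or to the serum response factor 21 fell and 1 rose, with a median of -1.15. Ankrd1, a standard target of the coactivators YAP and TAZ, stood at 11.18, 12 and 10.98 on day 2 and at 7.57, 8.36 and 7.44 on day 28 (-3.59, SE 0.47, adjusted p = 6.17e-06). Cnn1, calponin of smooth muscle and stress fibres, stood at 11.79, 12.32 and 12.18 and then at 9.32, 9.57 and 9.07 (-2.77, SE 0.35, adjusted p = 3.79e-06). Tagln, transgelin, changed by -2.32 (SE 0.22, adjusted p = 1.96e-07). The 1 rise was Wwtr1, which encodes TAZ, at 0.63 (SE 0.13, adjusted p = 0.000504). Immediate early genes, which cells switch on within minutes of a stimulus, fell in 15 of 26 cases and rose in 0, with a median of -0.73. Examples were Ier3 at -2.18 (SE 0.34, adjusted p = 3.84e-05) and the phosphatase Dusp1 at -1.94 (SE 0.36, adjusted p = 0.000294). Day 2 cells had not yet been moved to differentiation medium, and the time since the last feed is not stated in the labels.

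Of 18 genes of prostaglandin synthesis and response 8 rose (44.4%, against 19.6% over all genes) and 3 fell (16.7%, against 19.2%). Ptgs2, which makes the precursor of all prostaglandins, stood at 11.82, 11.93 and 11.80 on day 2 and at 6.39, 6.35 and 5.10 on day 28, a fall of 5.90 on the log2 scale (SE 0.59, adjusted p = 2.72e-07). Pla2g4a, the phospholipase that frees arachidonic acid, fell from 9.65, 9.71 and 9.49 to 8.02, 7.98 and 7.69 (-1.72, SE 0.24, adjusted p = 1.23e-05). Hpgd, which breaks prostaglandins down, rose from 4.75, 5.19 and 6.31 to 8.53, 9.07 and 10.23 (3.86, SE 0.64, adjusted p = 8.18e-05). The receptor Ptger3 rose by 3.48 (SE 0.44, adjusted p = 3.94e-06) from below the array median. The synthase Hpgds of prostaglandin D was also among the rises (3.22, SE 0.89, adjusted p = 0.00691), so the synthesis genes named here were not all lower.

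Genes of fat cells rose. Of 32 genes of lipid uptake, storage and lipolysis 24 rose, with a median change of 1.87, and 1 fell in the full set of arrays but not without day 2 replicate 2, day 2 replicate 3 or day 28 replicate 1. Cidec, which fuses lipid droplets, stood at 4.87, 4.52 and 4.87 on day 2 and at 10.27, 10.41 and 10.33 on day 28, a rise of 5.59 (SE 0.56, adjusted p = 2.83e-07). Lpl, lipoprotein lipase, stood at 5.92, 6.70 and 6.10 and then at 11.95, 11.74 and 12.20 (5.72, SE 0.62, adjusted p = 6.52e-07). Plin1, the coat of adipocyte droplets, stood at 4.56, 4.62 and 4.93 and then at 8.98, 9.48 and 9.44 (4.59, SE 0.44, adjusted p = 1.8e-07). In each the 3 day 28 values lay within a narrow band. Among secreted products, Adipoq, adiponectin, rose from 3.93, 4.31 and 4.10 to 9.51, 8.97 and 9.78 (5.31, SE 0.57, adjusted p = 6.67e-07). Lep, leptin, rose from 4.01, 3.46 and 3.10 to 5.96, 6.10 and 6.71 (2.73, SE 0.33, adjusted p = 2.77e-06), and its receptor Lepr fell from 8.06, 7.54 and 8.39 to 5.62, 5.27 and 6.02 (-2.36, SE 0.48, adjusted p = 0.000575). Adipoq and Lep both started below the array median.

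Of 25 transcription factors of fat cell formation 14 rose and 1 fell. Pparg, the nuclear receptor that drives adipogenesis, stood at 5.97, 6.14 and 7.42 on day 2 and at 9.28, 8.91 and 9.24 on day 28 (2.63, SE 0.40, adjusted p = 3.24e-05). Cebpa, its partner, stood at 5.62, 5.79 and 5.86 and then at 8.95, 9.37 and 8.86 (3.30, SE 0.33, adjusted p = 2.7e-07). The 1 fall was Klf5 at -2.15 (SE 0.28, adjusted p = 5.31e-06). Of 24 fatty acid oxidation genes 16 rose and 1 fell, with a median of 0.63, and that fall was lost without day 2 replicate 1, day 2 replicate 2, day 28 replicate 1 or day 28 replicate 2. Acadm, the medium-chain dehydrogenase, stood at 8.33, 8.22 and 8.25 on day 2 and at 10.09, 10.18 and 10.17 on day 28 (1.88, SE 0.12, adjusted p = 1.67e-09). Cox8b, a cytochrome oxidase subunit of brown fat and muscle, rose from 3.73, 4 and 3.35 to 7.18, 7.36 and 8.49 (3.99, SE 0.33, adjusted p = 3.46e-08). Oxidative phosphorylation subunits did not move as a list, with 2 of 43 higher and 2 lower (9.3% called) and a median of -0.02, and 1 of each direction was called without day 28 replicate 3 (higher) or without day 2 replicate 2, day 2 replicate 3, day 28 replicate 1 or day 28 replicate 2 (lower).

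Macrophage genes were higher on day 28. Of 34 tested 31 rose and 0 fell, with a median of 3.25, and 14 of the 34 lay below the array median on all day 2 arrays. Adgre1, the surface protein F4/80, stood at 3.73, 4.04 and 4.07 on day 2 and at 8.34, 8.88 and 9.53 on day 28 (4.97, SE 0.91, adjusted p = 0.000218). Csf1r, the receptor of CSF1 and IL-34, stood at 5.53, 5.61 and 5.75 and then at 7.47, 8.14 and 8.96 (2.56, SE 0.68, adjusted p = 0.00527). Lyz2, lysozyme of myeloid cells, stood at 6.32, 6.73 and 6.05 and then at 11.42, 11.61 and 12.28 (5.41, SE 0.73, adjusted p = 8.95e-06). Day 28 replicate 3 was the highest array in all 3 genes. Marco, a scavenger receptor, rose by 4.78 (SE 0.82, adjusted p = 0.000116), Mrc1, the mannose receptor, by 5.77 (SE 0.93, adjusted p = 6.04e-05), and Ptprc, the leukocyte antigen CD45, by 2.97 (SE 0.73, adjusted p = 0.00306). Over the 35 macrophage genes with a row, the array means were 4.50 to 4.63 on day 2 and 7.41 to 8.28 on day 28, and 12 of them on day 2 and 33 on day 28 lay above the median on all arrays.

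Of 13 osteoclast genes tested 5 rose, 1 fell and 7 were not called, a share of 46.2% called against the background of 38.8%. Their median change was 0.34, in a range from -1.28 to 4.03. Atp6v0d2, a proton pump subunit of osteoclasts and macrophages, stood at 2.69, 3.23 and 2.46 on day 2 and at 6.71, 5.83 and 7.94 on day 28 (4.03, SE 0.60, adjusted p = 2.65e-05). Acp5, tartrate-resistant acid phosphatase, stood at 5.03, 5.00 and 6.24 and then at 7.55, 7.21 and 8.10 (2.20, SE 0.33, adjusted p = 2.71e-05). Both genes had replicate 2 lowest and replicate 3 highest on day 28. Lysosome and autophagy genes, used by macrophages, osteoclasts and other cells alike, rose in 24 of 31 cases and fell in 0, with a median of 0.98. Among them Ctsf, a cathepsin, rose from 6.89, 6.95 and 6.59 to 8.91, 8.60 and 9.47 (2.18, SE 0.27, adjusted p = 3.84e-06), and Gpnmb, a glycoprotein of lysosomes in osteoblasts and macrophages, rose by 3.41 (SE 0.67, adjusted p = 0.000421). Apoe, made by macrophages and fat cells, rose by 3.19 (SE 0.44, adjusted p = 1.15e-05), and the cholesterol exporter Abca1 by 2.30 (SE 0.34, adjusted p = 2.42e-05).

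Of 29 listed complement genes 26 had a row and 19 were tested. Of the 19, 18 rose and 1 fell, with a median of 2.75. On all day 2 arrays 6 of the 19 lay below the array median, so these passed the filter only through other arrays. C4b stood at 5.15, 5.27 and 5.91 on day 2 and at 10.34, 9.92 and 10.43 on day 28 (4.79, SE 0.46, adjusted p = 1.97e-07). Serping1, the inhibitor of C1, stood at 6.33, 5.67 and 6.11 and then at 12.37, 12.38 and 12.27 (6.31, SE 0.57, adjusted p = 9.39e-08). The 1 fall was Masp1, a protease of the lectin pathway, at -2.17 (SE 0.34, adjusted p = 3.96e-05). Of 25 chemokine ligands 14 rose and 2 fell. Ccl6 stood at 3.59, 3.57 and 3.90 on day 2 and at 8.35, 8.92 and 8.45 on day 28 (4.89, SE 0.79, adjusted p = 6.49e-05), and Ppbp fell by 2.07 on the log2 scale (SE 0.50, adjusted p = 0.00265). The acute phase protein Hp, haptoglobin, rose by 6.20 (SE 0.42, adjusted p = 3.49e-09). Interferon-stimulated genes rose in 21 of 32 cases and fell in 0, and in 13 without day 28 replicate 1, the array with their highest mean (7.69 against 6.94 and 7.04). Ifit1 stood at 4.92, 4.66 and 4.39 on day 2 and at 9.52, 8.03 and 8.50 on day 28 (4.03, SE 1.05, adjusted p = 0.00461).

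**Figure D4:**
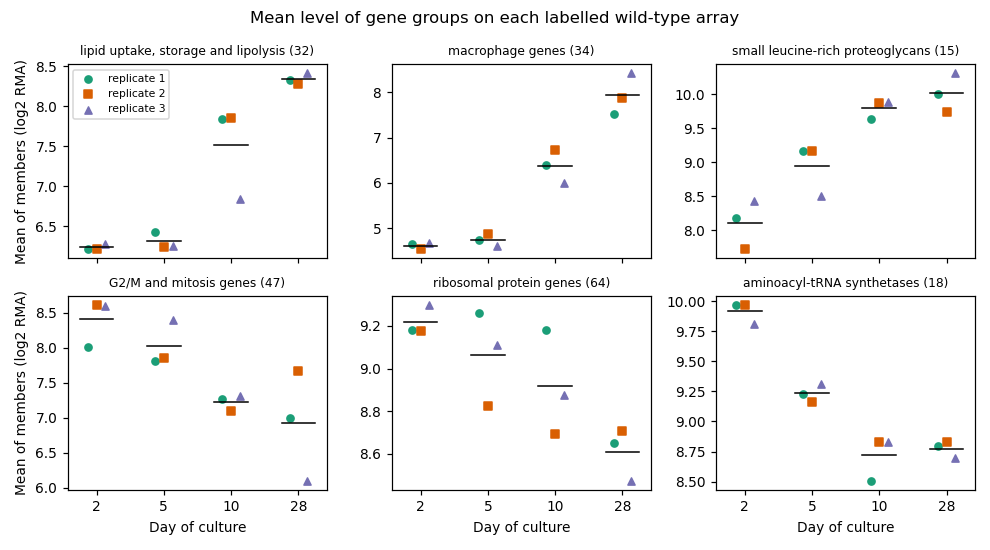
Mean log2 RMA level of the tested members of 6 gene lists (y axis) on each of the 12 arrays labelled wild type, by day of culture (x axis, not to scale), with a marker for each replicate and a line at the group mean. The lipid list runs from 6.21 to 6.27 on day 2 and from 8.28 to 8.42 on day 28, and the synthetases from 9.81 to 9.97 and from 8.70 to 8.83.

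Among Wnt genes 40.6% of 32 ligands and receptors and 43.8% of 16 secreted antagonists were called, near the background of 38.8%. Of 17 genes of R-spondins, LGR receptors and Wnt feedback 58.8% were called, 6 higher and 4 lower. Of the ligands and receptors 8 rose and 5 fell, the latter 3 without day 2 replicate 2 or without day 28 replicate 2. Fzd4, a Frizzled receptor, rose from 6.32, 6.53 and 6.83 to 10.72, 10.35 and 10.40 (3.93, SE 0.47, adjusted p = 2.07e-06), while Fzd6, another of the family, fell from 8.54, 8.65 and 8.36 to 5.96, 6.04 and 6.60 (-2.32, SE 0.31, adjusted p = 8.4e-06). Of the antagonists 6 rose (37.5%, against 19.6% over all genes) and 1 fell. The rises were led by Sfrp2 (6.66, SE 0.68, adjusted p = 3.54e-07) and Sfrp1 (4.90, SE 0.84, adjusted p = 0.000119), which bind Wnt ligands outside the cell. Rspo2, an R-spondin that keeps Frizzled receptors at the surface, stood at 6.27, 5.59 and 5.77 on day 2 and at 10.82, 10.23 and 10.90 on day 28 (4.77, SE 0.24, adjusted p = 8.25e-11). Its receptors moved apart: Lgr5 rose by 4.43 (SE 0.71, adjusted p = 5.46e-05) and Lgr6 fell by 2.08 on the log2 scale (SE 0.35, adjusted p = 0.000104). An R-spondin and several Wnt antagonists thus rose in the same cultures.

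In the BMP and TGF-β family 12 of 31 ligands and receptors rose and 6 fell. Gdf10, also named BMP3B, rose from 5.47, 5.60 and 6.31 to 10.30, 9.63 and 11.08 (4.54, SE 0.54, adjusted p = 1.95e-06). Inhba, the activin A chain, fell from 9.72, 9.79 and 9.41 to 7.43, 6.92 and 7.52 (-2.35, SE 0.32, adjusted p = 9.81e-06), and Bmp7 changed by -2.31 (SE 0.52, adjusted p = 0.00148). Of 22 BMP antagonists, inhibitory Smads and Ids 6 rose and 6 fell, with a median of -0.05. The widest rise among them was that of the antagonist Chrdl1, from 4.87, 4.33 and 5.97 to 11.08, 11 and 11.39 (6.10, SE 0.70, adjusted p = 1.44e-06). Among IGF genes the ligand Igf1 rose by 2.23 (SE 0.38, adjusted p = 0.000108) and the binding protein Igfbp3 by 4.71 (SE 0.45, adjusted p = 1.8e-07), while the receptor Igf1r fell by 1.69 on the log2 scale (SE 0.32, adjusted p = 0.000303).

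Of 24 genes of the angiopoietin, VEGF, HGF and PDGF families 16 rose and 4 fell, with a median of 1.13, and 16 rose without any 1 of the 6 arrays. Angpt1, the ligand of the endothelial receptor Tek, stood at 4.83, 4.34 and 4.68 on day 2 and at 9.49, 9.28 and 9.78 on day 28 (4.90, SE 0.37, adjusted p = 1.36e-08). Hgf, hepatocyte growth factor, rose from 5.82, 5.35 and 5.43 to 9.17, 9.25 and 8.66 (3.50, SE 0.32, adjusted p = 9.91e-08). Vegfa, the main angiogenic factor, fell from 10.04, 10.16 and 9.90 to 8.56, 8.79 and 8.36 (-1.46, SE 0.32, adjusted p = 0.0011), whereas Vegfd rose by 3.41 (SE 0.43, adjusted p = 3.91e-06). The EGF receptor ligand Hbegf fell from 10.47, 10.58 and 10.18 to 6.59, 6.47 and 6.56 (-3.87, SE 0.35, adjusted p = 9.18e-08), and the receptor Egfr itself rose by 1.28 (SE 0.33, adjusted p = 0.0038). Of 15 RGS proteins, brakes on G protein signalling, 3 rose and 5 fell, with a median of -0.03. At the extremes of that list, Rgs4 fell from 10.01, 10.27 and 9.46 to 6.04, 5.76 and 6.24 (-3.90, SE 0.32, adjusted p = 3.27e-08), and Rgs2 rose from 5.21, 5.52 and 5.42 to 8.90, 8.68 and 9.13 (3.52, SE 0.33, adjusted p = 1.22e-07). Of 31 semaphorins, plexins and neuropilins 14 rose and 7 fell. The widest fall among them was that of Sema3e, a guidance ligand, from 9.41, 9.55 and 8.71 to 5.16, 5.24 and 4.35 (-4.31, SE 0.46, adjusted p = 6.41e-07).

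Of 22 genes of glucose uptake and glycolysis 6 rose and 10 fell, the former 3 without day 2 replicate 3. Slc2a1, the widespread glucose carrier, fell from 9.90, 10.10 and 9.61 to 8.29, 8.32 and 8.13 (-1.63, SE 0.20, adjusted p = 2.6e-06), while Slc2a4, the insulin-regulated carrier of fat and muscle, rose from 5.17, 4.74 and 4.63 to 6.53, 7.06 and 7.10 (2.05, SE 0.25, adjusted p = 2.48e-06). Hk2, a hexokinase, fell from 7.93, 8.57 and 8.14 to 6.39, 6.83 and 6.84 (-1.53, SE 0.25, adjusted p = 5.87e-05). The groups were apart in each gene. Carbonic anhydrases held both the widest rise and a large fall: Car3 stood at 5.34, 5.44 and 4.42 on day 2 and at 12.94, 12.83 and 12.96 on day 28 (7.84, SE 0.88, adjusted p = 1.14e-06), and Car6, the secreted form, at 7.38, 6.75 and 6.87 and then at 4.18, 3.70 and 4.21 (-2.97, SE 0.28, adjusted p = 1.25e-07). Car6 ended below the array median on all day 28 arrays, so the size of its fall is less certain.

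MicroRNA genes, read on this array through their hairpin or host region and not as mature RNA, gave few calls: of 153 tested 9 were higher and 13 lower (14.4% against the background of 38.8%). The 9 became 5 without day 2 replicate 3 or without day 28 replicate 2, and the 13 became 24 with centred arrays. Mir199b rose from 3.44, 2.69 and 2.98 to 5.86, 5.21 and 5.00 (2.32, SE 0.53, adjusted p = 0.00161), and Mir99a from 4.07, 3.15 and 4.45 to 5.92, 5.82 and 5.52 (1.87, SE 0.31, adjusted p = 8.89e-05), both from below the array median. The host transcript Mir99ahg, looked up after that value was seen, changed by 1.74 (adjusted p = 0.000255). Mir542 fell from 5.01, 5.14 and 5.43 to 3.98, 4.05 and 3.61 (-1.31, SE 0.23, adjusted p = 0.000127), and Mir1983 from 6.09, 5.97 and 5.80 to 3.88, 3.80 and 3.05 (-2.38, SE 0.33, adjusted p = 1.11e-05), both to below the array median. The groups did not overlap in these 4 genes. One mature sequence of each is shown (RefSeq, GRCm38.p6), with the seed, bases 2 to 8, in capitals, because the seed sets which messages a microRNA can pair with, and no seed was shared among them.
mmu-miR-199b-3p, chr2:32318524-32318545, plus strand: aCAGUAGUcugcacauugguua
mmu-miR-99a-5p, chr16:77598940-77598961, plus strand: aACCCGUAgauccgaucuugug
mmu-miR-542-3p, chrX:53049415-53049436, minus strand: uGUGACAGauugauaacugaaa
mmu-miR-1983, chr13:21896930-21896950, minus strand: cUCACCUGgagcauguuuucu
Genes of other loci that carry the first 2 seeds and were tested did not pass the threshold: Mir199a-1 differed by 0.69 (adjusted p = 0.084) and Mir99b by 0.08 (adjusted p = 0.735).

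The same arrays of day 2 enter the comparisons of days 5 and 10, so these are given side by side and not as independent results. Against day 2, 826 genes (5.55%) were called on day 5, 425 (2.85%) higher and 401 (2.69%) lower, and 4568 (30.7%) on day 10, 2151 (14.4%) higher and 2417 (16.2%) lower. Between day 10 and day 28, 152 genes (1.02%) were called, 140 (0.94%) higher and 12 (0.0806%) lower on day 28. The ATF4 list had medians of -1.36 on day 5, -1.95 on day 10 and -1.62 on day 28. Within it Cth changed by -3.16 on day 5, -3.69 on day 10 and -3.30 on day 28, and Slc7a11 by -3.13, -4.63 and -3.59. Egfl6 stood at 2.57, 7.64 and 7.56 above day 2 on those days, and Sfrp2 at 1.58, 6.51 and 6.66. Small leucine-rich proteoglycans had medians of 0.69, 1.84 and 2.02, and fibrillar collagens of 0.07, 0.37 and 0.16. Some genes differed from day 2 mainly on day 28, among them Ccl6 at 0.11, 0.86 and 4.89, Pck1, the enzyme of glyceroneogenesis in fat, at 0.15, 0.93 and 3.44, and Cox8b at 0.22, 0.72 and 3.99. Mitosis genes had list medians of -0.41, -1.21 and -1.56, and macrophage genes of 0.17, 1.56 and 3.25. The lipid list mean on day 10 was 7.84, 7.85 and 6.84, so replicate 3 was behind the other arrays then, and all 3 lay between 8.28 and 8.42 on day 28.

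The labelled knockout cultures, which share no array with the labelled wild type, changed in the same direction at most of the called genes. Of the 5774 called genes 5714 moved the same way in the knockout and 60 the opposite way, 4626 were called the same way in both (80.1% of the wild-type calls and 81.8% of the 5658 knockout calls, themselves 38% of genes), and 0 were called in opposite directions. Across genes, which are not independent replicates, the Pearson correlation of the changes was 0.947. The difference of the changes, tested as an interaction, passed for 1 gene (0.00672%), and 410 genes (2.75%) had an unadjusted p under 0.05. That gene was Tmem45b, a transmembrane protein, which stood at 4.15, 4.51 and 4.10 on wild-type day 2, below the array median, and at 6.98, 6.89 and 7.53 on wild-type day 28 (2.88, SE 0.22, adjusted p = 1.64e-08), against a knockout change of 0.84. Its difference of 2.04 (adjusted p = 0.0428) missed the threshold in 9 of the 12 fits that leave out 1 array, with an adjusted p of up to 0.217 without wild-type day 2 replicate 1.

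Some fat genes had smaller knockout values side by side, and none of their differences passed: Cidec changed by 5.59 in the wild type and 3.36 in the knockout (adjusted p of the difference 1.0), Pck1 by 3.44 and 1.56, Adipoq by 5.31 and 3.70, and the lipid list had medians of 1.87 and 0.75. Macrophage genes had medians of 3.25 and 3.37, the proteoglycans of 2.02 and 1.98, and the mitosis genes of -1.56 and -2.0. Ibsp changed by 5.12 and 6.44. A difference that misses the threshold over 14892 genes does not show that the genotypes changed alike.

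**Figure D5:**
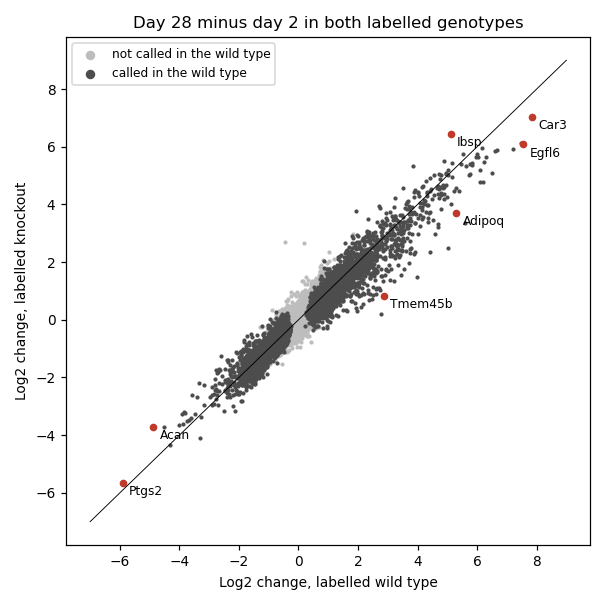
Log2 change from day 2 to day 28 in the labelled knockout (y axis) against the labelled wild type (x axis) for the 14892 tested genes, with the line of equal change. Points follow the line (r = 0.947 across genes), and Tmem45b lies below it at 2.88 against 0.84.

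Markers of other cell types that the digest could hold were checked beside these results. Over all rows of each list, array means for endothelial markers were 4.60 to 4.68 on day 2 and 4.57 to 4.98 on day 28, with 5 of 13 markers above the median on all arrays of each day. T, B and NK cell markers had means of 3.84 to 4.13 and 3.87 to 4.13 with 0 and 1 of 11 above the median, and neutrophil and mast cell markers had 3.46 to 3.56 and 3.48 to 3.54 with 0 of 12 above it on either day. Skeletal muscle markers had means of 4.94 to 5.06 on day 2 and 4.55 to 4.62 on day 28. Of 13 tested 4 fell (30.8%, against 19.2% over all genes). Neural and Schwann cell markers had means of 5.31 to 5.53 and 5.19 to 5.26, and of 7 tested 1 rose and 2 fell. Erythroid markers had means of 4.55 to 4.83 and 4.58 to 4.83, and epithelial markers of 4.63 to 4.83 and 4.58 to 4.69. Macrophage markers, given above, differed by the most among the other-lineage lists checked, and how far those cells set the complement, lysosome and interferon values was not tested. As for markers of the labelled cell type, Col1a1 stood at 13.04 or higher on all 6 arrays, Ibsp above 10 on day 28 replicates 1 and 3 only, and Bglap at 4.25 to 4.50 on day 2.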

How the data were processed

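The authors deposited log2 values per transcript cluster, made with RMA in the Expression Console software, per the submitters' processing notes. The sources used here name no genome build or annotation version. RMA forces the arrays to 1 distribution, so a change shared by most genes cannot be seen. Clusters with exactly 1 symbol in the platform annotation were kept, 1 per gene by the highest mean over 24 arrays, and genes at or above the array median on at least 3 arrays were tested with limma 3.58.1 in R 4.3.3: 1 mean for each of 8 groups over all 24 arrays, 16 residual and 4 prior degrees of freedom, eBayes, Benjamini-Hochberg adjustment and a threshold of 0.05. The script was tested on simulated data. Depth does not apply to arrays; their number limits the precision.

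The comparison, the gene lists and the rule for names were chosen with earlier results of these data known. Names are the 20 largest rises and falls with non-overlapping arrays (predicted genes left out), up to 8 members of each list per direction, up to 12 microRNA genes, genes past the test of the difference, and a short list of bone, fat, macrophage and sex-linked genes. Members of the lists without a single-gene cluster, such as Runx2 and Spp1, are not analysed here. Alternatives tried were the 6 compared arrays, the 12 wild-type arrays, a fixed or random replicate block, other filters, the mean of a gene's clusters, centred arrays, trend and robust moderation, treat, and leaving out each array.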

Additional observations from a re-analysis of the deposited data

Results flagged for a closer look

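Tmem45b was the 1 gene whose change from day 2 to day 28 differed between the labelled genotypes by the interaction test, by 2.04 on the log2 scale (limma, adjusted p = 0.0428), with a change of 2.88 in the wild type and of 0.84 in the knockout. All 3 wild-type day 28 arrays (6.98, 6.89 and 7.53) lay above the highest knockout day 28 array (5.39). The test picked this gene from the same values, so that separation adds no support. The call ended with a fixed replicate block (adjusted p = 0.0881), with no filter on low values (0.0515) and with centred arrays (0.121). It also ended in 9 of the 12 fits that leave out 1 array, where the difference lay between 1.84 and 2.23.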

How the results depend on the processing

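The count of 5774 called genes stayed within 1.5 times under the 6 compared arrays (5919), the 12 wild-type arrays (5426), no filter (5620), a stricter filter (5767), the mean of a gene's clusters (5745), centred arrays (6388) and trend with robust moderation (5808). A treat test at a 1.2-fold minimum called 3321 genes, 1872 higher and 1449 lower. Without 1 array at a time 4788 to 5264 genes were called, 2487 to 2740 higher and 2269 to 2625 lower. The difference between genotypes was called for 0 genes with a fixed replicate block, with no filter and with centred arrays, and for 0 to 3 without 1 array, the 3 without knockout day 28 replicate 2. Of 621 named genes called, 122 lost the call without at least 1 array and 120 in another setting, and 0 turned while called.

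Arrays of both days that share a replicate number had correlations of their deviations from the group means of 0.117, 0.0797 and 0.0474. Sex-linked genes followed the replicate number on both days, so the samples may be paired by number. The main fit did not use such a pairing. The fixed replicate block called 6532 genes, 5739 of the 5774 among them, and the random block 6480 (consensus correlation 0.158). Alpl passed the threshold with the fixed block (adjusted p = 0.047), and Dmp1 with either block.

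Arrays have no depth, and genes below the array median have only uncertain sizes.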

Other observations

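Transcript clusters outside the comparison of single genes were tested in the same way. Of 16010 clusters with no listed gene 7049 passed the filter, and 1011 of these (14.3%) were called between day 2 and day 28 in the labelled wild type. Of 1814 clusters with several symbols 1128 passed it and 426 (37.8%) were called.

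Genes of other groups also moved. Per3 and Dbp, clock genes with a daily rhythm, rose by 1.88 (SE 0.19, adjusted p = 3.92e-07) and 2.27 (SE 0.24, adjusted p = 5.32e-07) by limma, and no label states the hour of harvest. Cd34, an antigen of fibroblast-like progenitors and vessels, stood at 6.80, 6.34 and 5.99 on day 2 and at 10.48, 10.31 and 9.79 on day 28 (3.82, SE 0.47, adjusted p = 2.84e-06), while Six2, a factor of cranial suture cells, stood at 9.02, 8.80 and 8.89 and then at 7.89, 7.57 and 7.93 (-1.11, SE 0.23, adjusted p = 0.000604). Apod, apolipoprotein D, rose by 6.51 (SE 0.68, adjusted p = 4.85e-07), and Dpt, dermatopontin of soft connective tissue, by 6.61 (SE 0.56, adjusted p = 4.62e-08).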
